A study of Mus musculus with 25 samples.

Results

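Signals of 10 genes, the AP-1 subunits Fos, Fosb, Fosl2, Jun, Junb and Jund, the transcription factors Myc and Egr1, and the immediate early genes Ier3 and Zfp36, were followed across 25 Illumina bead arrays of mouse liver. They were taken by gene symbol in the authors' probe annotation, which gave 13 probes for these 10 of the 20005 gene symbols on the array. Every liver came from an injected mouse of the mixed strain C57BL/6J x 129Sv. The injection carried an empty vector, PIK3CA E545K or PIK3CA H1047R. PIK3CA encodes the catalytic subunit of a phosphoinositide 3-kinase and both changes are known from human tumours as activating. Normal liver came from empty-vector mice of 3 months (ctrl-3m, 4 arrays) and 6 months (ctrl-6m, 5 arrays). Preneoplastic liver came from H1047R mice of 3 months (H1047R-3m, 4 arrays), E545K mice of 3 months (E545K-3m, 5 arrays) and 1 H1047R mouse of 6 months (H1047R-6m). Liver tumours came from E545K mice of 5 months (E545K-5m, 5 arrays) and 1 H1047R mouse of 12 months (H1047R-12m). The labels used here name neither the injection route nor the promoter of the construct. They also do not say whether every array is a mouse of its own, and p-values refer to the spread from array to array, which may be technical. The study's design text sets the tumours against 5 controls of 5 months and counts 5 controls of 3 months; 0 and 4 such arrays were analysed here. In bulk tissue fewer cells of a type and less RNA per cell cannot be told apart.

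AP-1 is a dimer of a Fos with a Jun protein that binds DNA at a short palindrome, and its subunits are made within minutes of a growth signal or of tissue stress, through MAP kinases, SRF and CREB. Egr1 and Myc belong to the same early wave. In liver these genes are known for their brief induction after partial removal of the organ and during the handling and dissociation of tissue. Their messages are short-lived. Zfp36 (tristetraprolin) shortens such lives further by binding AU-rich elements in mRNA, those of inflammatory cytokines among them, and Ier3 encodes a small stress-induced protein that acts on cell survival and on ERK and NF-kappaB signalling.

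The promoters of 4 of these genes are shown. Ier3 and Zfp36 were the members called in every comparison of E545K tumours with livers, and Fos and Junb varied together from array to array. RefSeq sequences (GRCm38.p6, the build of the sequence table) were at hand for 8 of the 10 genes and run 250 bases before to 50 bases after the annotated start, 5′ to 3′ on the gene's strand. Fos lies at chr12:85473640-85473939 on the plus strand, Junb at chr8:84978699-84978998 on the minus strand, Ier3 at chr17:35821463-35821762 on the plus strand and Zfp36 at chr7:28379179-28379478 on the minus strand. Capitals mark the CArG box (the binding site of SRF, given by name), the TATA box TATAAA, the CCAAT box CCAAT and TGACG, the half-site of the cAMP response element TGACGTCA, each searched on both strands.
Fos: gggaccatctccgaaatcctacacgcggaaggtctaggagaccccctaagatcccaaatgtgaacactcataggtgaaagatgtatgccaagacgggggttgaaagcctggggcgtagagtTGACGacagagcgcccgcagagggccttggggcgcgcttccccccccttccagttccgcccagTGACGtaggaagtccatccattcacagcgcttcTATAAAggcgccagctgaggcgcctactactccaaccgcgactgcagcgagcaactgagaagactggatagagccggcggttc
Junb: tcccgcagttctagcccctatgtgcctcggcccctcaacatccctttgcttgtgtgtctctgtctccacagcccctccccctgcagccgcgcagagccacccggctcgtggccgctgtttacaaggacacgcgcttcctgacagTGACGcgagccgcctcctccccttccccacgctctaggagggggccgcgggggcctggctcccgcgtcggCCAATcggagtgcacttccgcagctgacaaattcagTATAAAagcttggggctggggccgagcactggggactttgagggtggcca
Ier3: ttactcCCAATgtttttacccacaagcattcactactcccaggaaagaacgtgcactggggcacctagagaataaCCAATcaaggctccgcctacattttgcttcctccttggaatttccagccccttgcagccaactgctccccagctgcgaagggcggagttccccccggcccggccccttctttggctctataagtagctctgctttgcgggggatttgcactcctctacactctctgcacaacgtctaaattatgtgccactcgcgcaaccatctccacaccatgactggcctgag
Zfp36: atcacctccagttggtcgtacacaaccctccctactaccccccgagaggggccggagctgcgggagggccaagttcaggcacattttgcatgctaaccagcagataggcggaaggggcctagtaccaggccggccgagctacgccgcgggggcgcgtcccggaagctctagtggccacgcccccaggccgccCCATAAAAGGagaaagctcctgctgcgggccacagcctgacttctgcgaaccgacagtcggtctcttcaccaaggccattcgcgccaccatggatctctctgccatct
A CArG box stood in 1 of the 8 promoters, that of Zfp36, at 58 to 49 bases before the start; 1.63% of 32851 promoters of this length hold one. TATAAA was found in Fos and Junb, against 13.6% of all promoters. TGACG was found in Fos, Fosb and Junb, against 20.8%, and CCAAT in Ier3, Jun and Junb, against 37.4%. The whole cAMP response element (1.79% of all promoters, which also contain its half-site), the AP-1 site TGACTCA (5.2%) and the E-box CACGTG bound by Myc (7.15%) were in none of the 8. The GC box GGGCGG was in 6 of the 8, against 35.7%. These matches describe letters in a short window and nothing about binding.

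Between 14536 and 18391 of 45281 probes were detected per array, at a detection p under 0.05. All values below are log2 of the normalized signal, and the dimmest detected probe of an array lay at 4.59 to 4.93. The scale holds an offset of 16 signal units, so folds of dim genes are understated. A probe was tested when it was detected on at least 4 arrays, and 20349 probes were. A gene was represented by its brightest tested probe, and called when its adjusted p in limma was under 0.05. Of the 10 genes 9 were tested. Of 10 hepatocyte markers all were detected in every group, except 1 in H1047R-6m and 1 in H1047R-12m, and their mean signal was 10.86 to 11.96 over the arrays. Skeletal muscle markers, which should be absent from liver, were near the floor on most arrays, but their mean signal reached 11.09 on ctrl-3m replicate 4, 10.26 on H1047R-3m replicate 2, 7.41 and 7.37 on ctrl-3m replicates 2 and 3, and 7.03 on ctrl-6m replicate 4.

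In the E545K tumours Ier3 rose and Zfp36 fell against every group of livers they were compared with, while Egr1, Junb and Fosl2 rose against some of them only. Against the 3-month controls 5 of the 9 genes were called, 4 higher and 1 lower, where 40.4% of all 11594 genes were called, 19.4% higher and 21% lower. Against the 6-month controls 2 of 9 were called, 1 in each direction, beside 18.6% of all genes (10.2% higher, 8.38% lower). Against E545K livers of 3 months 3 of 9 were called, 2 higher and 1 lower, beside 40.3% of all genes (19.7% higher, 20.6% lower). The counts of called genes are thus close to the background of a comparison in which much of the transcriptome moved, and the size of the change in Ier3 is what stands out among the members. The median log2 difference of the 9 genes was 0.34, 0.21 and 0.51 in these comparisons, where that of all genes was -0.03, -0.02 and -0.03. These comparisons share the same 5 tumour arrays.

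Ier3 was the member with the widest range. Its probe (ILMN_1216764) gave 6.87, 7.44, 6.70 and 7.43 in the 3-month controls and 8.67, 6.49, 7.18, 8.03 and 7.52 in the 6-month controls. In preneoplastic liver it gave 7.82, 7.61, 7.0 and 6.90 for H1047R, 7.55, 7.59, 7.25, 6.96 and 7.02 for E545K, and 7.39 in the H1047R liver of 6 months. The E545K tumours gave 9.95, 10.84, 10.41, 9.46 and 11.03, and the H1047R tumour 12.85. All 6 tumour arrays lay above all 19 other arrays, the highest of which was a 6-month control. By group mean the order ran from ctrl-3m (7.11 ± 0.38, SD, n = 4) through E545K-3m (7.27 ± 0.29, n = 5), H1047R-3m (7.33 ± 0.45, n = 4), H1047R-6m and ctrl-6m (7.58 ± 0.83, n = 5) to the tumours (10.34 ± 0.65, n = 5), and neighbours below the tumours differed by less than their SDs.

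The increase of Ier3 in E545K tumours was 3.23 ± 0.31 (log2, SE) against 3-month controls, or 9.36-fold, with an adjusted p of 4.8e-05 in limma. It was 2.76 ± 0.41, or 6.76-fold, against 6-month controls (adjusted p = 0.00108) and 3.06 ± 0.28, or 8.36-fold, against E545K livers of 3 months (adjusted p = 2.04e-05). Groups did not overlap in any of these, which 30.8%, 14.6% and 23.4% of all genes also showed. Over all alternatives tried the difference stayed between 2.28 and 3.45 and was called in each.

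**Figure D1:**
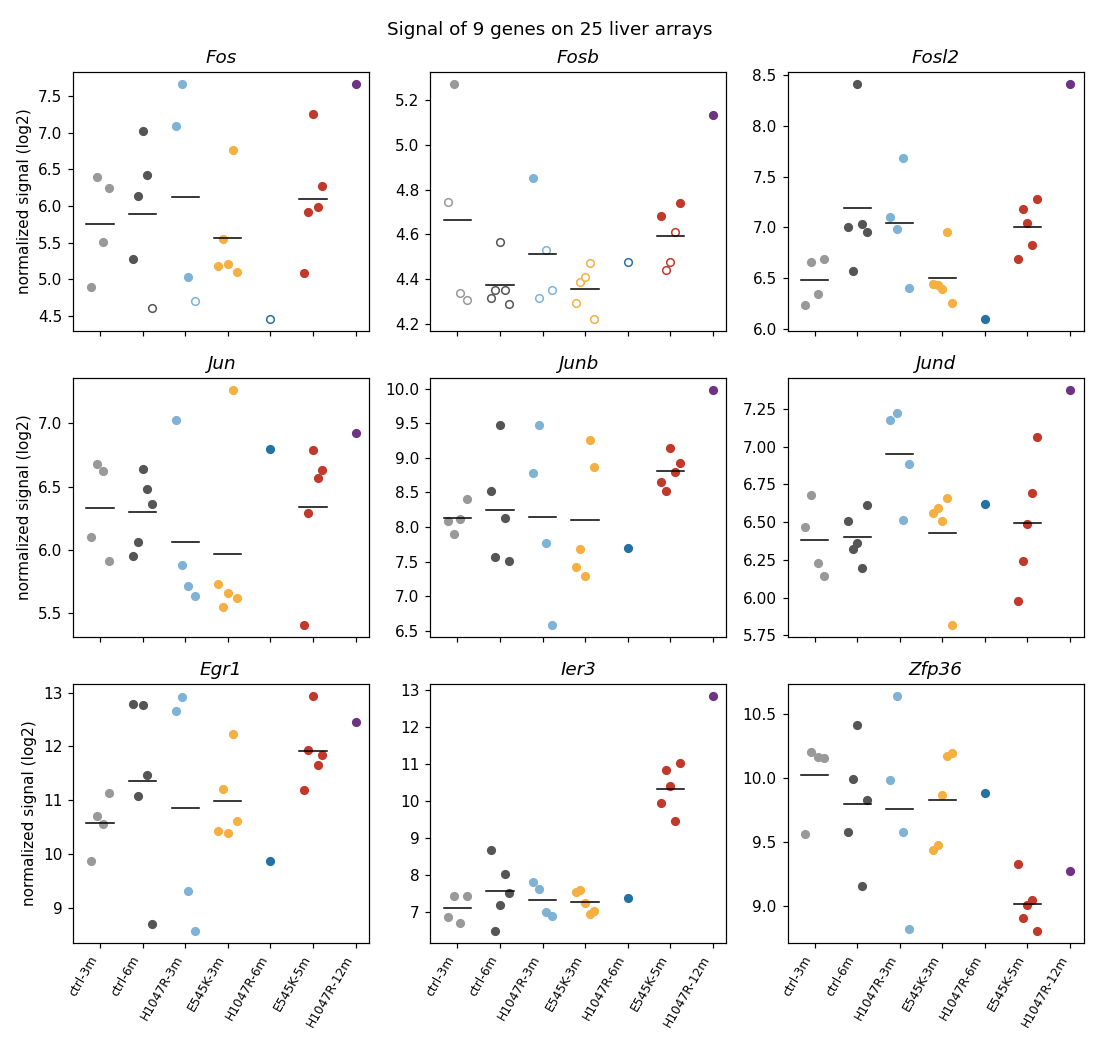
Normalized signal (log2) of 9 genes on each of 25 arrays, by group; filled points are detected, open points are not, and bars are group means where a group has more than 1 array. Ier3 separates the 6 tumour arrays (9.46 to 12.85) from the other 19 (6.49 to 8.67), while Egr1 and Fos spread widely inside groups.

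Zfp36 went the other way. The 3-month controls gave 9.57, 10.20, 10.17 and 10.15, and the 6-month controls 9.58, 9.99, 10.42, 9.16 and 9.83. Preneoplastic liver gave 9.98, 10.64, 9.58 and 8.83 for H1047R and 9.44, 9.48, 9.87, 10.17 and 10.19 for E545K at 3 months, and 9.89 for H1047R at 6 months. Signals of the E545K tumours were 9.33, 8.91, 9.01, 9.05 and 8.81, and that of the H1047R tumour was 9.28. The E545K tumours thus lay below every 3-month control and every E545K liver of 3 months, but 1 of the 6-month controls and 1 H1047R liver lay within their range. The log2 difference of Zfp36 was -1.0 ± 0.17 against 3-month controls, which stood 2.00-fold above the tumours (adjusted p = 0.00125). Against E545K livers of 3 months the difference was -0.81 ± 0.18 (adjusted p = 0.00564), and against 6-month controls -0.78 ± 0.22 (adjusted p = 0.033). The call against 6-month controls was lost in 8 of 18 alternatives (adjusted p up to 0.0831), 7 of which left out 1 array, with differences of -0.93 to -0.62 over all 18, and held in all alternatives of the other comparisons.

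Of 10 cytokine and chemokine mRNAs known to be bound by the Zfp36 protein, 2 were tested and the other 8 were not detected on enough arrays. Cxcl1, a neutrophil-attracting chemokine, was 3.14 ± 0.41 higher in E545K tumours than in 3-month controls (8.81-fold, limma adjusted p = 0.000271) and 2.46 ± 0.36 higher than in 6-month controls (adjusted p = 0.001). Il1b, the cytokine interleukin 1 beta, differed by -0.21 ± 0.26 from 3-month controls (adjusted p = 0.557) and fell by 0.64 against 6-month controls (adjusted p = 0.0411). The mean signal of these 2 genes was 8.39 to 8.96 in E545K tumours. It was higher on H1047R-3m replicates 1 and 2 (9.16 and 9.30), where Zfp36 stood at 9.98 and 10.64. On replicates 3 and 4 of that group it was 7.0 and 6.54, with Zfp36 at 9.58 and 8.83. A link of either gene to Zfp36 was not tested.

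Egr1, a zinc finger factor that responds to ERK signalling, was the most variable member inside groups. The 3-month controls gave 9.87, 10.71, 10.56 and 11.14, and the 6-month controls ran from 12.79, 11.08, 12.78 and 11.48 down to 8.69. H1047R livers of 3 months gave 12.65 and 12.91 on replicates 1 and 2 and 9.31 and 8.57 on replicates 3 and 4. E545K livers gave 10.42, 11.22, 10.40, 12.24 and 10.62, and the H1047R liver of 6 months 9.86. The E545K tumours gave 11.19, 11.94, 12.95, 11.66 and 11.84, all above the 3-month controls, and the H1047R tumour 12.46. Against 3-month controls the tumours were 1.35 ± 0.34 higher (2.55-fold, adjusted p = 0.009). Against 6-month controls the difference was 0.56 (95% interval -0.93 to 2.04, limma adjusted p = 0.623) and was not called. Against E545K livers of 3 months it was 0.94 (0.09 to 1.79, adjusted p = 0.0746), also not called. The latter was called in 2 of 18 alternatives. These left out the tumour with the lowest Egr1 (replicate 1, 1.12, adjusted p = 0.0375) or the E545K liver with the highest (replicate 4). The increase over 3-month controls did not pass with all 25 arrays in a single fit (adjusted p = 0.194) or with 3-month controls 1 and 2 left out (1.07, adjusted p = 0.0976).

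Among the Jun proteins only Junb was called. Junb, a subunit that can also restrain the activity of Jun, gave 8.08, 7.90, 8.12 and 8.41 in the 3-month controls and 8.65, 8.53, 9.14, 8.80 and 8.92 in the E545K tumours, without overlap. The 6-month controls (8.53, 7.57, 9.47, 8.12 and 7.51), E545K livers (7.43, 7.69, 7.30, 9.26 and 8.86) and H1047R livers (8.78, 9.48, 7.76 and 6.59) spread more widely, and the H1047R tumour gave 9.99, the highest Junb signal of all arrays. Junb was 0.68 ± 0.16 higher in E545K tumours than in 3-month controls (1.60-fold, adjusted p = 0.00729). It was 0.57 (95% interval -0.16 to 1.29, adjusted p = 0.276) above 6-month controls and 0.70 (-0.08 to 1.48, adjusted p = 0.138) above E545K livers. The difference from 6-month controls was called in 1 of 18 alternatives and not in the other 17. That 1 left out 6-month control 3 (0.87, limma adjusted p = 0.0276), the array with the highest Junb of that group. A larger difference without it follows from that choice. Like that of Egr1, the Junb call against 3-month controls was lost in the single fit (adjusted p = 0.277). It was also lost without 3-month controls 1 and 2 (0.54, adjusted p = 0.088).

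Jun, the founding subunit of AP-1 and required for liver regeneration in the mouse, gave 5.40, 6.29, 6.79, 6.57 and 6.63 in the tumours and 6.10, 6.68, 6.62 and 5.91 in the 3-month controls. The tumours differed from 3-month controls by 0.01 (95% interval -0.61 to 0.62, adjusted p = 0.989) and from 6-month controls by 0.04 (-0.53 to 0.60, adjusted p = 0.944). Jund, the subunit that is made at a steady level in resting cells, gave 5.98, 6.24, 6.49, 6.69 and 7.06 in the tumours and 6.47, 6.68, 6.23 and 6.14 in the 3-month controls, a difference of 0.11 (-0.36 to 0.59, adjusted p = 0.704).

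Among the Fos proteins Fosl2, a Fos relative known for slower and longer induction, was the 1 with a call. Its leading probe (ILMN_1252481) gave 6.68, 7.18, 7.04, 6.82 and 7.28 in the E545K tumours and 6.23, 6.66, 6.34 and 6.69 in the 3-month controls, which met at their edges. The 6-month controls gave 7.0, 6.57, 8.41, 7.03 and 6.95, the E545K livers 6.45, 6.43, 6.40, 6.96 and 6.26, and the H1047R tumour 8.42. Fosl2 was 0.52 ± 0.17 higher than in 3-month controls (1.44-fold, adjusted p = 0.0292) and 0.51 ± 0.17 higher than in E545K livers (1.42-fold, adjusted p = 0.0319). It differed by -0.19 (95% interval -0.84 to 0.47, adjusted p = 0.713) from 6-month controls. These calls were fragile: 9 of 18 alternatives lost the first (adjusted p up to 0.15) and 11 of 18 the second (up to 0.133). The other 2 Fosl2 probes were detected on 2 and 1 of 25 arrays and were not tested.

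Fos, the subunit after which the family is named, gave 4.89, 6.40, 5.50 and 6.25 in the 3-month controls and 5.27, 6.13, 7.03, 6.42 and 4.61 in the 6-month controls, the last not detected. E545K tumours gave 5.09, 5.91, 7.25, 5.98 and 6.27, inside the range of the controls but for 1 array, and the H1047R tumour 7.67. The tumours differed by 0.34 (95% interval -0.57 to 1.25, adjusted p = 0.542) from 3-month controls and by 0.21 (-0.83 to 1.25, adjusted p = 0.807) from 6-month controls. Fosb was detected on 5 of 25 arrays, at most at 5.27, and no comparison called it. Myc, which drives growth and ribosome production, had 2 probes, 1 detected on no array and the other on 1, the E545K tumour replicate 4, at 4.67. Myc was therefore not tested, and a difference in Myc was not detectable at this depth of signal.

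**Figure D2:**
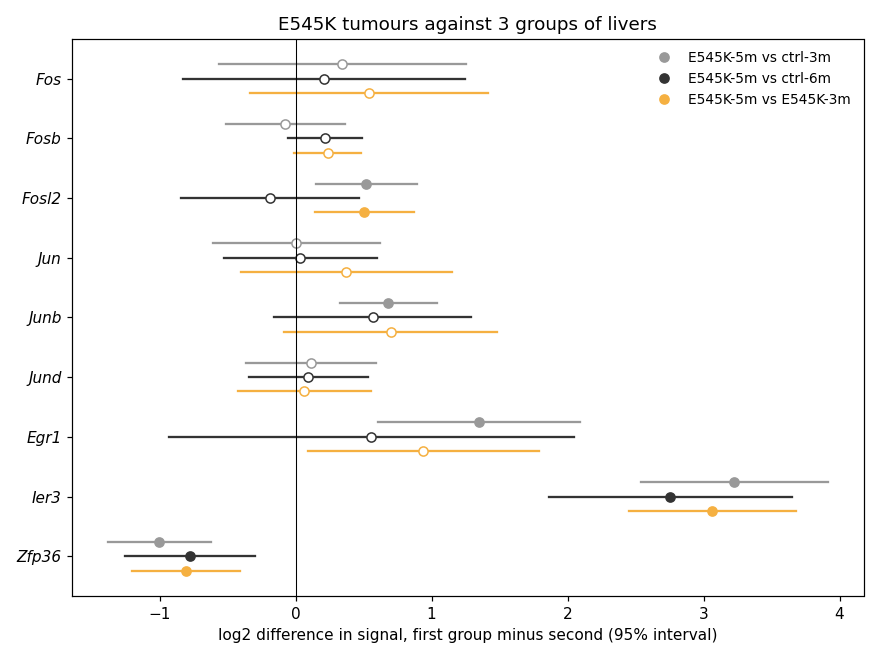
Log2 difference of E545K tumours from 3 groups of livers for 9 genes, with 95% intervals from limma; filled points are called at an adjusted p under 0.05. Ier3 is called higher (2.76 to 3.23) and Zfp36 lower (-1.0 to -0.78) in all 3 comparisons, and the intervals of Fos, Jun, Jund and Fosb cross 0.

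At 3 months neither mutation moved these genes measurably. None of the 9 was called between H1047R and control livers of 3 months, where 0% of all genes were called and 1409 of 20349 probes had an unadjusted p under 0.05. None was called between E545K and control livers, where 0.00863% of all genes were and 878 probes had such a p, nor between H1047R and E545K livers (0% of all genes, 1135 probes). Jund stood at 7.18, 7.22, 6.52 and 6.88 in H1047R livers, 0.57 ± 0.19 above 3-month controls (95% interval 0.15 to 0.99, unadjusted p = 0.0133, limma adjusted p = 0.636). Fosl2 stood at 7.10, 6.98, 7.68 and 6.40 there, 0.56 ± 0.24 above the same controls (0.02 to 1.10, unadjusted p = 0.0447, adjusted p = 0.713). Both genes also had an unadjusted p under 0.05 between H1047R and E545K livers (0.52 for Jund and 0.54 for Fosl2, adjusted p of 0.873 and 0.882). Ier3 differed from the 3-month controls by 0.22 (-0.34 to 0.78) in H1047R and by 0.16 (-0.30 to 0.62) in E545K livers, intervals that leave out the increase measured in tumours. Between the mutations Ier3 differed by 0.06 (-0.44 to 0.56) and Zfp36 by -0.07 (-0.79 to 0.65).

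Age alone gave no call either. Between control livers of 6 and 3 months none of the 9 was called, as 0% of all genes were, with 2116 probes at an unadjusted p under 0.05. Fosl2 was 0.71 higher at 6 months (95% interval -0.01 to 1.43, unadjusted p = 0.0519, adjusted p = 0.484) and Egr1 0.79 higher (-0.80 to 2.39, adjusted p = 0.689).

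The 2 late H1047R samples differed greatly from each other. As a group of n = 2 against 6-month controls they gave no call among the 9 genes and 0.0345% among all genes. Ier3 was 7.39 in the preneoplastic liver of 6 months and 12.85 in the tumour of 12 months, a mean difference from controls of 2.54 ± 1.25 (adjusted p = 0.712). With the liver left out the tumour alone stood 5.27 above the controls (adjusted p = 0.00916), on the assumption that a lone tumour varies like the controls. Fos was 4.46, not detected, in the liver and 7.67 in the tumour, Egr1 9.86 and 12.46, Junb 7.70 and 9.99, and Fosl2 6.10 and 8.42. Jun (6.80 and 6.93) and Jund (6.62 and 7.38) lay above all 6-month controls in both samples, with adjusted p of 0.696 and 0.684; 11.7% of all genes did not overlap in this comparison.

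These genes differed widely in their spread inside groups. The pooled within-group SD was 1.32 for Egr1, higher than that of 99.7% of the 11594 genes, 0.94 for Fos (98.8%), 0.78 for Junb (97.2%), 0.57 for Ier3 (91.1%) and 0.55 for Jun (89.7%), where the median of all genes was 0.32. Several members were high on the same arrays. On E545K-3m replicate 4, 7 of the 9 genes had their highest value of that group, with Jun at 7.27 against 5.54 to 5.73 on the other 4 arrays, Fos at 6.76 against 5.10 to 5.55 and Egr1 at 12.24. On ctrl-6m replicate 3, 6 of the 9 were highest, among them Fos at 7.03 and Fosl2 at 8.41, and on ctrl-3m replicate 2 also 6. H1047R-3m replicate 4 held the lowest value of 7 of the 9. The share of all genes that were highest or lowest on these arrays was not computed. E545K-3m replicate 4 had the lowest mean correlation with its own group over the tested probes (0.952, against 0.962 to 0.978). The counts for E545K-3m replicate 4 and ctrl-6m replicate 3 include Fosb, which was not detected on any array of either group.

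Across the 5 groups with replicates, Egr1 and Junb had their highest value on the same array in 4, and Fos and Junb did so in 4. Egr1 and Fos shared the highest array in 3 groups and the lowest in 4. Ier3 shared the highest array with Junb in 0 of the 5 groups and with Egr1, Fos, Fosl2 or Zfp36 in 1 each. It did so with Jun or Jund in 2 each and with Fosb in 3. Egr1 likewise shared the highest array with Fosb or Zfp36 in 1 group each. Each group held only 4 or 5 arrays, and how often other gene pairs match was not computed.

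**Figure D3:**
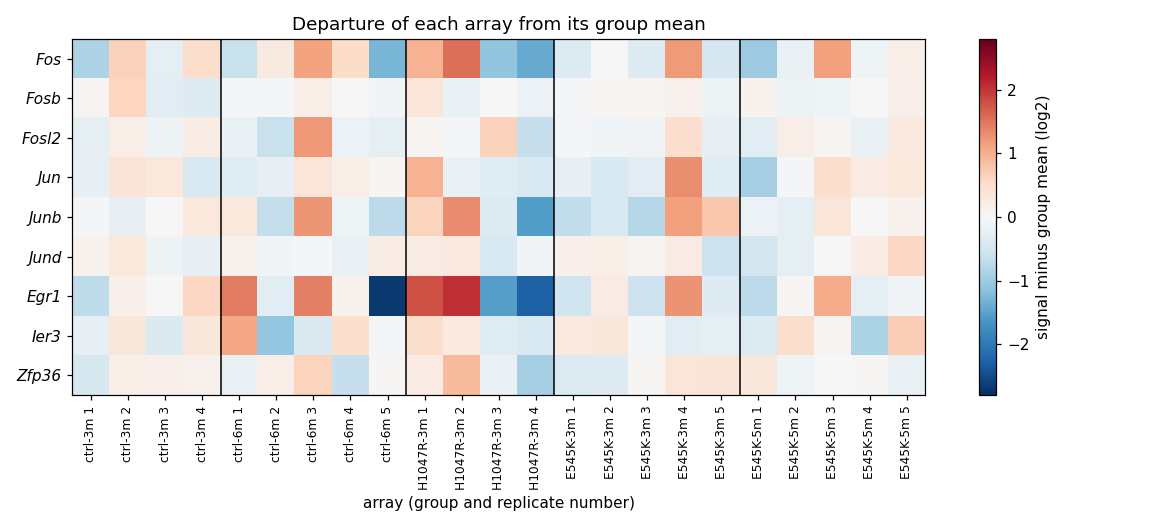
Departure of each array from its group mean (log2, colour) for 9 genes, with groups separated by vertical lines. Egr1, Fos and Junb are raised together on H1047R-3m replicates 1 and 2 and lowered together on replicate 4, and E545K-3m replicate 4 holds the highest value of its group for 7 of the 9 genes. Fosb, among these 7, was not detected on any array of that group.

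Other lists moved on some of these arrays. Heat shock genes had a mean signal of 10.92 on ctrl-6m replicate 3 against 8.65 to 9.66 on the other 6-month controls. Macrophage markers had a mean signal of 7.71 and 7.69 on H1047R-3m replicates 1 and 2, where Egr1 was high, and 6.53 and 6.90 on replicates 3 and 4. On E545K-3m replicate 4 they had the highest mean of that group, 7.31 against 6.45 to 6.82. H1047R-3m replicate 2 is also an array with muscle markers, while E545K-3m replicate 4 is not (4.60). The part of these in the spread of Egr1, Fos and Junb was not tested. Leaving out E545K-3m replicate 4 raised the count of members called in tumours against E545K livers from 3 to 6. Egr1 (1.25, limma adjusted p = 0.00761), Junb (0.99, adjusted p = 0.0167) and Jun (0.70, adjusted p = 0.039) were then called. That array was singled out for its high values of these genes, so larger differences without it follow from the choice. With each array of this comparison left out in turn, the count ran from 2 to 6.

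The genes closest to Egr1 over the 25 arrays, by the root-mean-square difference of log2 signals centred on each gene's mean, were Fos (0.73), Junb (0.76) and Irf2bp2 (0.84), so 2 of the nearest 3 of 11593 genes were other members. Those closest to Ier3 were Gdpd1 (0.62), Nupr1 (0.62) and Rhoc (0.63), and no other member came nearer to it than Junb (1.35). These are descriptions of shared pattern over arrays that include the tumours.

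Other genes of the pathway were read by list in the same fits. Of 9 further AP-1 and Maf family genes tested, 3 rose and 1 fell in E545K tumours against 3-month controls, with a median difference of 0.12 over the list, where 40.4% of all genes were called (18.6% against 6-month controls). Jdp2, a repressor of AP-1, rose by 0.98 (limma adjusted p = 0.00156), the stress factor Atf3 by 1.03 (adjusted p = 0.00528) and the small Maf protein Maff by 0.93 (adjusted p = 0.00176, at least 1.58-fold higher, since no 3-month control was detected), while Mafg fell by 1.02 (adjusted p = 0.00679). Against 6-month controls Maff alone was called (0.85, adjusted p = 0.00906). Of 31 further immediate early genes 8 rose and 5 fell, with a median of 0.15 over the list and the same 40.4% of all genes called, so neither list was called at a rate far from the background. Tnfaip3, which limits NF-kappaB signalling, was at least 2.70-fold higher (adjusted p = 0.000114), the stress gene Gadd45a rose by 2.15 (adjusted p = 0.000138), and Nfil3 and the kinase gene Plk3 fell by 2.30 and 2.04 (adjusted p of 4.6e-05 for both). Against 6-month controls 2 rose, Tnfaip3 and the matrix protein gene Ccn2 (1.33, adjusted p = 0.0463), and 2 fell, Nfil3 (by 1.97, adjusted p = 0.0056) and Dusp1, a phosphatase that turns off MAP kinases (by 0.93, adjusted p = 0.045).

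Genes upstream of these promoters were called in both directions. Of 11 kinases and SRF partners tested, 5 rose and 3 fell against 3-month controls (all genes 19.4% and 21%) and 3 rose and 1 fell against 6-month controls (all genes 10.2% and 8.38%). The kinase gene Mapk3 rose by 0.92 (adjusted p = 0.00172), Rps6ka1, a kinase below ERK, by 1.24 (adjusted p = 0.0011), and Mapk8, which encodes the Jun kinase JNK1, fell by 1.10 (adjusted p = 0.000462). Mapk3, Rps6ka1 and Mapk8 were called in the same direction against 6-month controls (0.70, 1.76 and -0.83, adjusted p of 0.037, 0.00017 and 0.0137).

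Of 13 tested genes known as AP-1 targets 10 rose and 0 fell against 3-month controls, with a median of 1.87 over the list, and 5 rose and 0 fell against 6-month controls, with a median of 1.58, where 19.4% and 10.2% of all genes rose and the median of all genes was -0.03 and -0.02. The collagenase gene Mmp13 rose by 2.75 (adjusted p = 0.000146) and the metallothionein genes Mt1 and Mt2 by 2.82 and 2.11 (adjusted p of 0.00102 and 0.000589). Timp1, an inhibitor of such proteases, was at least 10-fold higher (adjusted p = 0.000206). Against 6-month controls the macrophage elastase gene Mmp12 (1.72, adjusted p = 0.0064) and Spp1, which encodes osteopontin and also marks bile duct cells (3.67, adjusted p = 0.00787), were among those called. In the E545K and H1047R livers of 3 months no gene of this list was called. Many of these targets respond to other factors as well, and the list was not used to read AP-1 activity. It was chosen with earlier results of these data known, so its excess over all genes is a description and no test.

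Genes around Myc were called beside a background of 40.4% against 3-month and 18.6% against 6-month controls. Of 10 genes of the Myc-Max network 1 rose and 2 fell against 3-month controls. Max, the partner of Myc, rose by 0.75 (limma adjusted p = 0.00133). Mlxipl, the glucose-sensing factor of the same family, and Mxi1, an antagonist of Myc, fell by 2.06 and 0.76 (adjusted p of 0.000497 and 0.00766). Against 6-month controls 0 of the 10 rose and 1 fell, so the rise of Max was not called there. Mean Max signal was 8.31 in 3-month controls, 8.75 in 6-month controls and 9.05 in E545K tumours. Of 23 tested Myc targets of ribosome production and growth 3 rose and 3 fell against 3-month controls (median over the list 0.20), with Cdk4 2.32 higher (adjusted p = 0.000192), the nucleolar Npm1 1.22 higher (adjusted p = 0.000456) and the transferrin receptor gene Tfrc 2.23 higher (adjusted p = 0.000751). Rrp9, a protein of the small nucleolar RNA machinery, fell by 0.55 (adjusted p = 0.0166). Against 6-month controls Npm1 and Tfrc were the 2 called (0.72 and 1.48, adjusted p of 0.0143 and 0.0141), and the median over the list was -0.19.

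**Figure D4:**
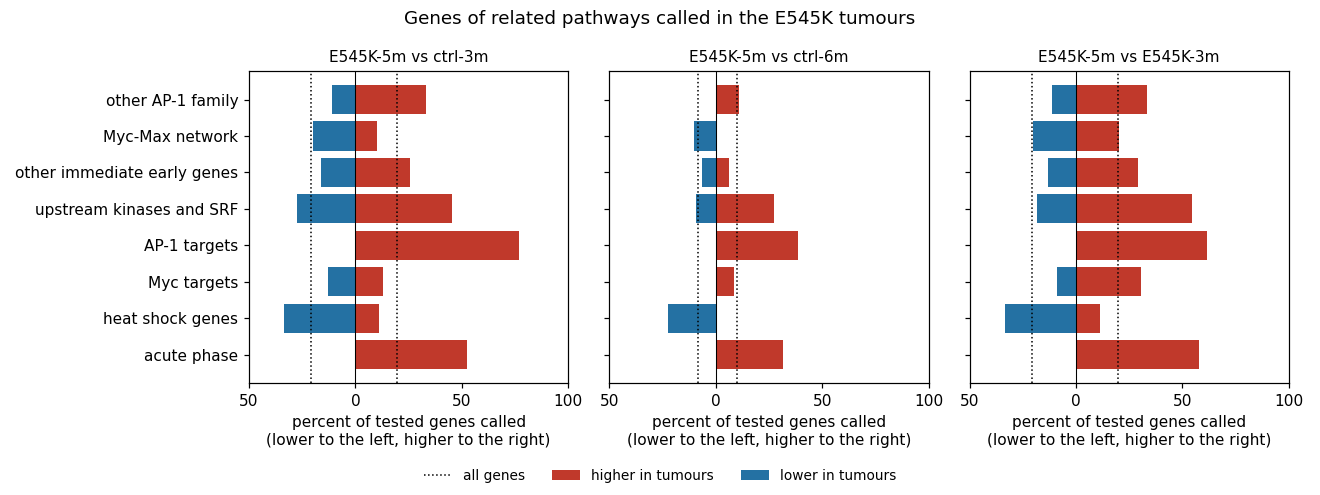
Percent of the tested genes of 8 lists called higher (right, red) or lower (left, blue) in E545K tumours in 3 comparisons; dotted lines are the percent of all genes called in each direction. AP-1 targets (10 of 13, 5 of 13 and 8 of 13 called higher, 0 lower) reach past the dotted line in each panel. So do acute phase genes (10, 6 and 11 of 19 higher, 0 lower) and upstream kinases and SRF (5, 3 and 6 of 11 higher, 3, 1 and 2 lower). The other AP-1 family, the Myc-Max network and the Myc targets stay nearer to it. The lists were chosen with earlier results of these data known.

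Lists of other cell types and states moved with these results. Beside them, 19.4% of all genes were called higher and 21% lower against 3-month controls, and 10.2% and 8.38% against 6-month controls. Macrophage markers were called higher for 5 of 10 against either control group, 0 lower, with mean signals of 7.57 to 9.63 in E545K tumours, 6.75 to 7.70 in 3-month and 6.34 to 7.88 in 6-month controls. All 10 were detected in each of these groups, and their summed signal was 2978 to 9874 units in tumours, 1781 to 3301 in 3-month and 1274 to 3776 in 6-month controls. Cd14, a receptor for bacterial products, led them (4.03 and 4.39 higher, adjusted p of 1.1e-06 and 2.1e-07). Acute phase genes were called higher for 10 of 19 and 6 of 19, 0 lower, with mean signals of 11.42 to 11.56 in tumours; 3-month controls 1 and 2 reached 11.32 and 11.06, where the other 2 were at 10.08 and 10.03. Muscle markers were called lower for 9 of 10 against 3-month controls, and for 0 of 10 against 6-month controls and against E545K livers, which had mean signals of 4.37 to 4.60. In E545K tumours 8 of the 10 were detected on no array, and the summed signal was 202.5 to 221.3 units, against 375.4 to 32660 in 3-month controls. In 6-month controls the mean signal of muscle markers was 4.39 to 7.03. The part of macrophages, of the acute phase and of muscle in the Ier3 and Zfp36 differences was not tested.

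The authors' deposited tables give the same genes from their own fit. In the authors' deposited table named for E545K tumours against 3-month controls, Ier3 stood at a log2 difference of 2.75 (adjusted p = 1.26e-05), Zfp36 at -0.77 (adjusted p = 0.0812) and Egr1 at 0.55 (adjusted p = 0.801). These are not differences from 3-month controls on the values used here: over all 45281 probes the authors' deposited table correlated at 0.99983 with tumours minus 6-month controls and at 0.886 with tumours minus 3-month controls, and the 3 other deposited tables matched their own names at 0.99965 to 0.99973. The values of that authors' deposited table are therefore read here beside the comparison with 6-month controls. In the authors' deposited tables for both mutations at 3 months no member probe had an adjusted p under 0.05.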

How the data were processed

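Per the labels, total RNA of each liver or tumour was extracted with Trizol and a column with DNase, turned into biotinylated cRNA and hybridized to an Illumina mouse bead array. The deposited scanner table holds, per the file headers, an average signal intensity and a detection p-value for every probe and array, with no normalization. The authors also deposited processed expression values, which were log2-transformed here and used as an alternative. Their own limma tables of log2 differences, with p-values adjusted over 45281 probes, were deposited as well. The deposited table named for E545K tumours against 3-month controls matched tumours minus 6-month controls, as described with its values. No label or header names the background correction behind the authors' values.

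Intensities were background-corrected from the detection p-values, given an offset of 16, quantile-normalized and log2-transformed (neqc in limma 3.58.1, R 4.3.3). The tested set was all probes with a detection p under 0.05 on 4 or more arrays. Each of 8 comparisons was its own lmFit and eBayes fit over all kept probes, on the arrays of its groups, with Benjamini-Hochberg adjustment and calls at 0.05. Intervals are 95%. A fold against a group with no detected array was taken as a lower bound, against the lowest detected signal. Probe symbols were updated through Entrez identifiers for 436 symbols. Promoters were searched in Python 3.11.15 and figures drawn with matplotlib 3.10.9. The members and gene lists were chosen with earlier results of these data known, and up to 4 genes of smallest p were named from each list and comparison, except 1 that is not reported here, and the 3 nearest genes of members with an SD over 1. No 2 arrays held identical values, and no array pair stood apart as a repeat.

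In simulated data built on the real probes, a log2 shift of 2 was recovered for 89 of 100 probes in tumours against 3-month controls, 96 against 6-month controls and 94 against E545K livers, and a shift of 1 for 42, 57 and 52. In the H1047R livers of 3 months a shift of 1 was recovered for 21 of 100. Only 100 of 20349 probes were shifted, whereas 8093, 3254 and 7917 probes were called in the real tumour comparisons. The cut-off of the adjustment depends on that number, so the recovered shares need not hold for the tumour tests. The alternatives skipped background correction, took log2 of the authors' deposited values, or used other detection filters or leading probes only. Others used a single fit of all arrays, a trended and robust prior or a replicate block. The rest left out each array in turn, or 3-month controls 1 and 2 together. In no comparison did all same-numbered arrays deviate together (correlations from -0.324 to 0.539). Some pairs did: for E545K tumours and 6-month controls the correlation was 0.539 for replicate 1 and 0.485 for replicate 3. It was 0.026, -0.294 and -0.043 for replicates 2, 4 and 5. The number of arrays limits the precision.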

Additional observations from a re-analysis of the deposited data

Results flagged for a closer look

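Within groups of 4 or 5 arrays, 7 of 45 sets of member values had 1 array far from the others by Dixon's test. Chance marks about 1 in 20 of independent sets, but these sets share arrays on which several members were high together. The share of sets marked over all genes was not computed, so 7 of 45 cannot be read as an excess in these genes. In E545K livers of 3 months, replicate 4 stood high for Fos (6.76, nearest other array 5.55), Fosl2 (6.96, nearest 6.45) and Jun (7.27, nearest 5.73), all log2 signals. In the same group replicate 5 stood low for Jund (5.82, nearest 6.51). In 6-month controls, replicate 3 stood high for Fosl2 (8.41, nearest 7.03) and for Fosb (4.56, nearest 4.35), although Fosb was not detected on any array of that group. In 3-month controls, replicate 1 stood low for Zfp36 (9.57, nearest 10.15).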

How the results depend on the processing

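Over 1234 recomputed differences of single genes, 1194 kept direction and call, 32 lost a call, 8 gained 1 and 0 changed sign among calls. Ier3 was called in all 18 alternatives of each tumour comparison (2.61 to 3.45 against 3-month controls, 2.28 to 3.03 against 6-month controls, 2.52 to 3.28 against E545K livers). Of the 9 genes, 5 were called against 3-month controls, 2 with all 25 arrays in a single fit, 2 without 3-month controls 1 and 2, and 4 to 5 with 1 array left out. Against 6-month controls 2 were called, 1 without the filter on dim probes, and 1 to 2 with 1 array left out; Zfp36 lost its call without the filter and without tumour replicate 2, 3, 4 or 5 or 6-month control 2, 3 or 5. Against E545K livers 3 were called, 2 to 6 with 1 array left out. In late H1047R samples 0 were called, 1 in the single fit and 0 to 1 with 1 array left out. In the comparisons at 3 months and between the control ages 0 were called in every alternative.

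The number of probes called among 20349 moved more. It was 8093 against 3-month controls, 4689 over leading probes only and 4494 without 3-month controls 1 and 2. It was 3254 against 6-month controls, 4975 in the single fit and 2117 to 3707 with 1 array left out, and 7917 against E545K livers, 4725 over leading probes only. For late H1047R samples it was 5, 1393 in the single fit 2 to 9 in the other alternatives with all arrays, and 2 to 1005 with 1 array left out, the 1005 without the H1047R-6m array. At 3 months it was 2 for E545K against controls (0 to 3 over all alternatives) and 0 for H1047R (2 without H1047R-3m replicate 4), and between control ages 0 (at most 2). Apart from fewer probes or samples in the test, the cause was not tested. With the replicate block the members called were 4, 2 and 2 in the tumour comparisons and 0 in the others that allow a block; it ended the Fosl2 calls (0.45, adjusted p = 0.0866, and 0.51, adjusted p = 0.0676, limma) and no other. The labels give no link between same-numbered arrays beyond the number. Signal over background limits Myc, which was not tested, and Fosb, detected on 5 of 25 arrays. Fosb was called against E545K livers with the trended and robust prior alone (0.24, adjusted p = 0.0428).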
